A study of Homo sapiens with 9 samples.

Results

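The genes described here are 9 human complement genes: C3, CFB, CFP, C1R, C1S and CFI, whose products are secreted, and CD46, CD55 and CD59, whose products protect the cell surface. They were taken by symbol from a table of read counts with 23710 entries. All 9 had an entry and at least 1 read, and 8 of them were among the 12546 genes with enough reads to test. CFI was not. The genes were selected on these same libraries, because C3 and CFP had already been named among genes that differed with shUGDH-2. Their values in shUGDH-2 against shNT are therefore given as a description, without a p-value. The shNT libraries also served that choice, so tests of shUGDH-1 against shNT are not independent of it. Tests between the hairpins use the shUGDH-2 libraries and are not independent of it either.

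The libraries came from MDA-MB-231, a long-established cell line from a human triple-negative breast cancer, transduced with lentivirus that carried a pGIPZ vector. One group carried the hairpin shUGDH-2 and another shUGDH-1, both against UGDH, and the third carried a non-targeting hairpin, shNT, with 3 libraries each. All groups, controls included, thus carried a lentiviral vector, and the cells were grown in DMEM with fetal bovine serum. UGDH makes UDP-glucuronate, a building block of hyaluronan and of sulfated glycosaminoglycans. Per the labels the libraries are biological replicates. Separate transductions and single clones are not mentioned, so a p-value here speaks of the spread among 3 libraries of a group and no further.

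Complement is a chain of proteases and binding proteins that ends in opsonised or perforated target cells. The classical pathway starts when C1q binds a surface and its proteases C1r and C1s cut C4 and C2. The alternative pathway builds on C3 itself: factor B joins C3b to form a C3-cutting enzyme, and properdin, the product of CFP, holds that enzyme together. Host cells resist through regulators. Factor I, from CFI, cuts C3b with CD46 as a cofactor on the membrane, CD55 speeds the decay of the C3-cutting enzymes, and CD59 blocks the membrane attack complex. Liver is the main source of the plasma proteins, and many epithelial and tumour cells make some of them.

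The hairpin sequences that define the groups are shown first, as the labels give them and read 5′ to 3′. Bases 2 to 8, the seed if the sequence is the guide strand, are in capitals.
shUGDH-2: aTATACTTcagatctgctg
shUGDH-1: tTGCATCAaatatgcgacg
shNT: aTCTCGCTtgggcgagagtaag
Both UGDH sequences are antisense to the UGDH transcript, and the shNT sequence is not. Which strand of the shNT hairpin is given was not established here, so its seed below may not be that of the guide. The 3 seeds differ. A perfect complement of the shUGDH-2 seed occurred 1 time in the CD46 and 1 time in the CD55 principal transcript of GENCODE 29, and 16.3% of 19656 protein-coding transcripts held one. The complement of the shUGDH-1 seed occurred 1 time each in C1R and CD46, and in 21.2% of the transcripts. The complement of the shNT seed occurred in 14.4% of the transcripts and in none of the 9 genes. C3, CFP, CFB, C1S, CFI and CD59 held no match to any of the 3 seeds. A match is a description of letters, and its part in any value here was not tested.

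UGDH had 96, 86 and 84 reads in the shUGDH-2 libraries and 99, 97 and 74 reads in the shUGDH-1 libraries, against 690, 654 and 590 reads in the shNT libraries. Its log2 fold change was -2.89 with shUGDH-2 and -2.80 with shUGDH-1, so both hairpins lowered their target to a like extent. The libraries held 9249738 to 13328002 reads assigned to genes, fewest in shUGDH-1 replicate 3. All 5 markers of the line (VIM, CD44, EGFR, CAV1 and MSN) stood above 1 CPM in every group, CPM being read counts scaled to a fixed library size. PGR had no reads, ESR1 averaged 0.0362 CPM with shUGDH-1 and was at 0 with the other hairpins, and ERBB2 averaged 127 CPM with shUGDH-2, 127 CPM with shUGDH-1 and 117 CPM with shNT. Among cells that also make complement, hepatocytes left at most 0.253 CPM summed over 6 markers in any library, with APOB, TTR, FGB and AHSG at 0 in all. Summed over 8 leukocyte markers the level was 24.1 to 27.2 CPM with shUGDH-2, 25.0 to 28.7 CPM with shUGDH-1 and 28.4 to 32.9 CPM with shNT. Most of it was LAPTM5 (20.2 CPM with shUGDH-2, 21.7 CPM with shUGDH-1 and 25.2 CPM with shNT), while CD3E had no reads and the pan-leukocyte gene PTPRC averaged at most 0.0513 CPM. Fibroblast markers, 6 in all, summed to 38.4 to 40.4 CPM with shUGDH-2, 41.3 to 44.2 CPM with shUGDH-1 and 34.0 to 37.8 CPM with shNT, with DCN and LUM at 0. The part of these markers in the complement values was not tested. In a bulk library, fewer cells that express a gene and less RNA per cell cannot be told apart.

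Among the 9 genes, and per length of transcript, the membrane regulators were several times more abundant than the secreted components. This does not hold for every secreted complement gene. CLU, a soluble regulator described below, averaged 49.6 CPM per kb with shUGDH-2, 45.5 CPM per kb with shUGDH-1 and 45.6 CPM per kb with shNT. CD55 averaged 63.7 CPM per kb with shUGDH-2, 60.6 CPM per kb with shUGDH-1 and 59.5 CPM per kb with shNT. CD46 averaged 43.0 CPM per kb with shUGDH-2, 46.5 CPM per kb with shUGDH-1 and 43.4 CPM per kb with shNT. CD59 averaged 38.7 CPM per kb with shUGDH-2, 38.6 CPM per kb with shUGDH-1 and 40.9 CPM per kb with shNT. These lengths are those of the GENCODE principal transcripts, so an isoform of another length would shift the order, and CD46 and CD59 lie close enough that their order is not firm. The secreted components lay between 2.30 and 8.67 CPM per kb with shUGDH-2, between 1.44 and 5.23 CPM per kb with shUGDH-1 and between 1.67 and 3.80 CPM per kb with shNT, leaving CFI aside. C3 was the highest of them with shUGDH-2, at 8.67 ± 0.65 CPM per kb, and with shUGDH-1, at 5.23 ± 0.08 CPM per kb (SD, n = 3 each). In shNT libraries C1R (3.80 ± 0.13 CPM per kb), CFP (3.56 ± 0.23), C3 (3.31 ± 0.26) and CFB (3.03 ± 0.26) followed each other with SDs that overlap between neighbours, and C1S was lowest at 1.67 ± 0.04 CPM per kb (SD, n = 3 each).

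**Figure D1:**
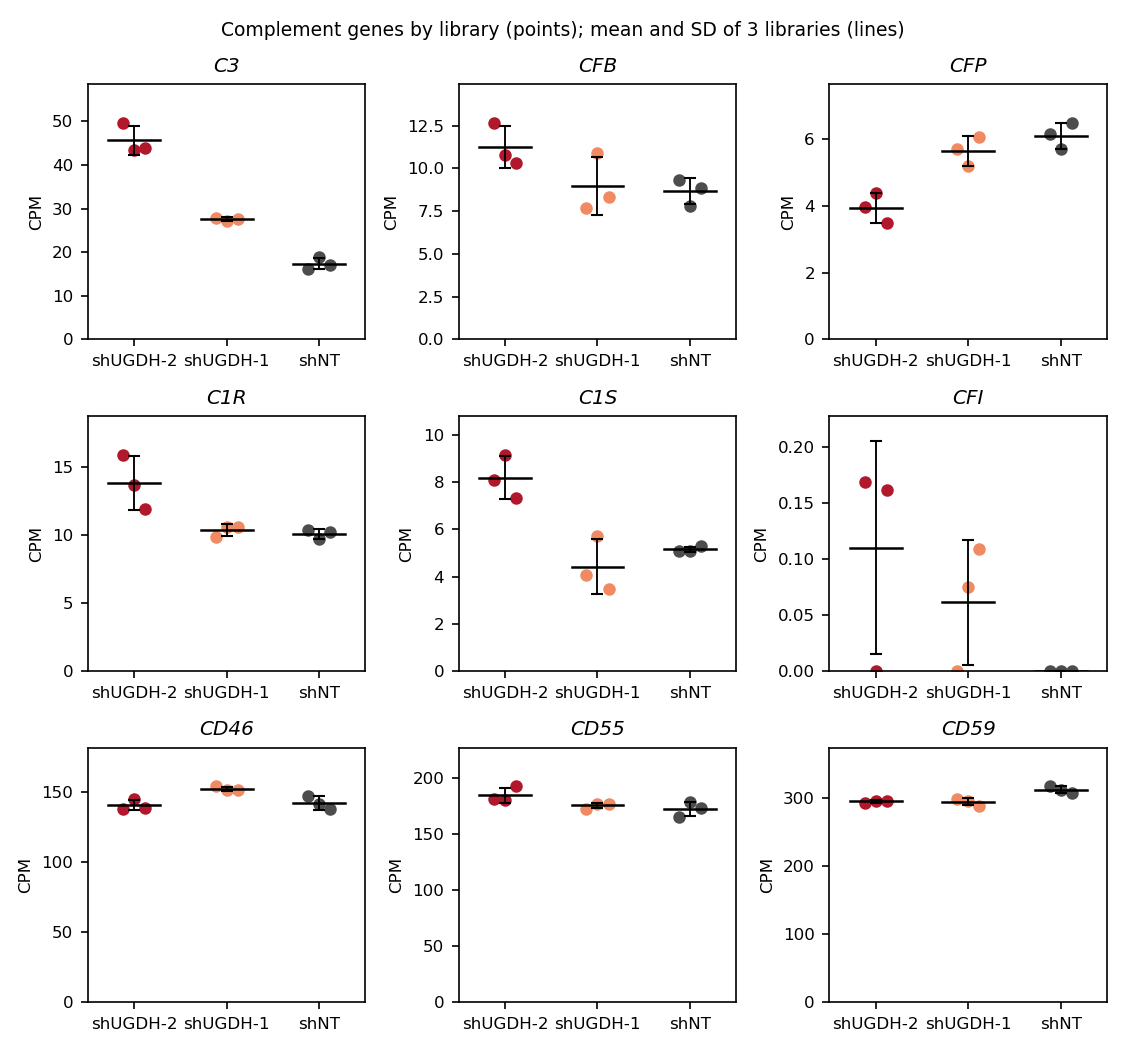
Level of each of the 9 genes in CPM (vertical axes from 0, own scale per gene) in shUGDH-2, shUGDH-1 and shNT libraries. Points are libraries, long lines are means and bars are SDs of 3 libraries. The 3 hairpins form separate steps for C3, whereas for CFP, C1R and C1S only the shUGDH-2 libraries stand apart, and CD46, CD55 and CD59 stay within narrow ranges.

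C3 encodes the central component, the protein that all activation routes cut. The gene lies on chromosome 19, on the minus strand at 6677704 to 6730562 (GRCh38, GENCODE 29), in 41 exons. The build of the deposited counts is hg19. Its annotation overlaps that of GPR108 on the same strand. C3 stood at 49.5, 43.5 and 43.8 CPM in the shUGDH-2 libraries, at 27.95, 27.1 and 27.6 CPM in the shUGDH-1 libraries and at 16.2, 18.9 and 17.1 CPM in the shNT libraries. No library of one hairpin overlapped another hairpin's range, and the shUGDH-1 libraries lay between the others. In reads, these were 588, 565 and 542 with shUGDH-2, 363, 360 and 254 with shUGDH-1, and 211, 222 and 201 with shNT.

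With shUGDH-1, C3 rose 1.58-fold over shNT (log2 fold change 0.66, SE 0.08, adjusted p = 1.1e-09). All adjusted p-values are from the quasi-likelihood test of edgeR, adjusted by Benjamini-Hochberg over all genes tested, and a gene passed when this value was under 0.05. The C3 change was larger in size than that of 98.0% of all genes tested. With shUGDH-2 the level was 2.62-fold that of shNT (log2 1.39, SE 0.07), and 1.65-fold that of shUGDH-1 (log2 0.73, SE 0.07). Both are given without a p-value because C3 was chosen on shUGDH-2 against shNT. The shNT libraries of that choice also serve the shUGDH-1 test of C3, which is therefore not independent of it. UGDH itself did not pass between the hairpins, at a log2 fold change of -0.09 for shUGDH-2 against shUGDH-1 (95% interval -0.35 to 0.16, adjusted p = 0.74, edgeR). The authors' deposited table gives C3 a log2 fold change of 1.34 with shUGDH-2 and 0.64 with shUGDH-1 against shNT.

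Factor B, the serine protease of the alternative C3-cutting enzyme, comes from CFB on chromosome 6 (plus strand, 31945650 to 31952084), beside C2, with which its annotation overlaps by 23 bases. CFB stood at 12.6, 10.8 and 10.3 CPM in the shUGDH-2 libraries, at 7.70, 10.9 and 8.36 CPM in the shUGDH-1 libraries and at 9.30, 7.82 and 8.86 CPM in the shNT libraries. The shUGDH-2 libraries lay above every shNT library, but 1 shUGDH-1 library reached into their range. Against shNT the log2 fold change was 0.37 with shUGDH-2 (SE 0.12). With shUGDH-1 it was 0.06 (95% interval -0.20 to 0.32, adjusted p = 0.80), and between the hairpins it was 0.31 (95% interval 0.06 to 0.55, adjusted p = 0.095, edgeR), so neither of these passed. The difference from shNT with shUGDH-2 missed the threshold under DESeq2 and without shUGDH-2 replicate 1 (log2 0.29), shNT replicate 2 (0.31) or shNT replicate 3 (0.39). Without shUGDH-1 replicate 2, its highest library, the difference between the hairpins passed (log2 0.49, adjusted p = 0.015).

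CFP, on the minus strand of the X chromosome at 47623172 to 47630305, encodes properdin, the positive regulator of the alternative pathway. With shUGDH-2 it stood lower, unlike C3 and CFB. CFP was found at 3.96, 4.39 and 3.47 CPM in the shUGDH-2 libraries, at 5.70, 5.19 and 6.08 CPM in the shUGDH-1 libraries and at 6.15, 5.70 and 6.47 CPM in the shNT libraries. All shUGDH-2 libraries lay below all others, while the shUGDH-1 and shNT ranges overlapped. These levels rest on 147 reads with shUGDH-2, 199 with shUGDH-1 and 223 with shNT, summed over 3 libraries. The log2 fold change with shUGDH-2 was -0.63 (SE 0.16) against shNT and -0.51 (SE 0.16) against shUGDH-1, a description because CFP was chosen on the shUGDH-2 libraries. With shUGDH-1 against shNT it was -0.12 (95% interval -0.42 to 0.18, adjusted p = 0.64, edgeR). The difference between the hairpins did not pass under DESeq2 (log2 -0.51), without shUGDH-1 replicate 1 (-0.49) or 3 (-0.46), or without shUGDH-2 replicate 1 (-0.51) or 3 (-0.42).

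The proteases of the C1 complex, C1R and C1S, are neighbours on chromosome 12, with 9166 bases between them. C1R lies on the minus strand at 7080199 to 7092607 and C1S on the plus strand at 6988259 to 7071032. C1R stood at 15.9, 13.7 and 11.96 CPM in the shUGDH-2 libraries, at 9.86, 10.6 and 10.6 CPM in the shUGDH-1 libraries and at 10.4, 9.69 and 10.2 CPM in the shNT libraries. C1S stood at 8.09, 9.16 and 7.35 CPM in the shUGDH-2 libraries, at 4.08, 5.72 and 3.47 CPM in the shUGDH-1 libraries and at 5.07, 5.10 and 5.28 CPM in the shNT libraries. For both genes every shUGDH-2 library exceeded every other library, and the shUGDH-1 and shNT libraries overlapped.

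Between the hairpins C1S was 1.81-fold higher with shUGDH-2 (log2 0.86, SE 0.15, adjusted p = 2.5e-05) and C1R 1.34-fold higher (log2 0.42, SE 0.11, adjusted p = 0.0051, edgeR). Both tests use the shUGDH-2 libraries that had served the choice of the genes, so they are not independent of it. Against shNT the shUGDH-2 levels were 1.59-fold for C1S (log2 0.67, SE 0.15) and 1.37-fold for C1R (log2 0.45, SE 0.11). With shUGDH-1 against shNT neither passed: C1R had a log2 fold change of 0.03 (95% interval -0.20 to 0.27, adjusted p = 0.88) and C1S of -0.19 (95% interval -0.53 to 0.15, adjusted p = 0.50). Without shUGDH-2 replicate 1, its highest library, the C1R difference no longer passed against shUGDH-1 (log2 0.31, adjusted p = 0.097) or against shNT (log2 0.35). C1R overlaps its paralog C1RL on the same strand by 3021 bases, and C1S overlaps EMG1 on the same strand and LPCAT3 on the other. How the authors' counting treated such reads and strand is not given in the sources used here, so shares of these counts are uncertain.

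CFI, the protease that destroys C3b, was close to undetected. It had 2, 0 and 2 reads in the shUGDH-2 libraries, 0, 1 and 1 reads in the shUGDH-1 libraries and 0 reads in all shNT libraries. A count of 0 over the shNT libraries allows up to 0.0823 CPM (3 reads in the group's total, counting error only), beside 0.110 CPM with shUGDH-2 and 0.0613 CPM with shUGDH-1. A difference was not detectable at this depth.

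CD46, the membrane cofactor for factor I, lies on chromosome 1 at 207752057 to 207795513, 365252 bases from CD55 at 207321376 to 207386804, both on the plus strand. CD46 stood at 138, 145 and 139 CPM in the shUGDH-2 libraries, at 154, 152 and 152 CPM in the shUGDH-1 libraries and at 147, 142 and 138 CPM in the shNT libraries. The shUGDH-1 libraries were the high ones, above all others, while shUGDH-2 and shNT overlapped. CD46 rose with shUGDH-1 over shNT (log2 fold change 0.10, SE 0.03, adjusted p = 0.032), and was lower with shUGDH-2 than with shUGDH-1 (log2 fold change -0.11, SE 0.03, adjusted p = 0.020, edgeR). The log2 fold change with shUGDH-2 against shNT was -0.01 (95% interval -0.08 to 0.05). Both CD46 calls were lost under the DESeq2 fit made here (adjusted p = 0.11 and 0.095), while the authors' deposited table gives CD46 with shUGDH-1 against shNT an adjusted p of 0.048. The call against shNT was also lost without any 1 shUGDH-1 library or without shNT replicate 2 or 3 (0.056 to 0.16), and that between the hairpins without shUGDH-1 replicate 1 or 2 or shUGDH-2 replicate 1 or 3 (0.062 to 0.10).

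CD55 is decay-accelerating factor. It stood at 181, 180.0 and 192 CPM in the shUGDH-2 libraries, at 172, 177 and 177 CPM in the shUGDH-1 libraries and at 165, 178 and 173 CPM in the shNT libraries. The shUGDH-2 libraries were above the others by a few CPM at the closest point. Its log2 fold change was 0.10 (SE 0.03) with shUGDH-2 against shNT, 0.03 with shUGDH-1 against shNT (95% interval -0.04 to 0.09, adjusted p = 0.63) and 0.07 between the hairpins (95% interval 0.01 to 0.14, adjusted p = 0.15, edgeR). The first missed the threshold under DESeq2 (log2 0.10) and without shNT replicate 1 (0.07) or shUGDH-2 replicate 3 (0.07).

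CD59, on the minus strand of chromosome 11 at 33703010 to 33736491, was the only one of the 8 tested genes to stand apart from shNT by nearly the same amount with both hairpins. It stood at 293, 296 and 296 CPM in the shUGDH-2 libraries and at 299, 296 and 289 CPM in the shUGDH-1 libraries, against 317, 312 and 307 CPM in the shNT libraries. Every UGDH hairpin library was below every shNT library. CD59 fell with shUGDH-1 to 0.944-fold of shNT (log2 fold change -0.08, SE 0.03, adjusted p = 0.013, edgeR), and its log2 fold change with shUGDH-2 was -0.08 (SE 0.03). Between the hairpins it was 0.00 (95% interval -0.05 to 0.05, adjusted p = 1.0). The call with shUGDH-1 was lost without shNT replicate 1 (adjusted p = 0.062) or shUGDH-1 replicate 3 (0.088), and that with shUGDH-2 under DESeq2 (log2 -0.08) and without shNT replicate 1 (-0.07) or shUGDH-2 replicate 1 (-0.08). In the authors' deposited table CD59 passes the same threshold with both hairpins against shNT. Both comparisons share the shNT libraries. With shUGDH-2 against shNT, C3, CFP, C1R and C1S pass there too, while CFB and CD55 do not, unlike in the edgeR fit.

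**Figure D2:**
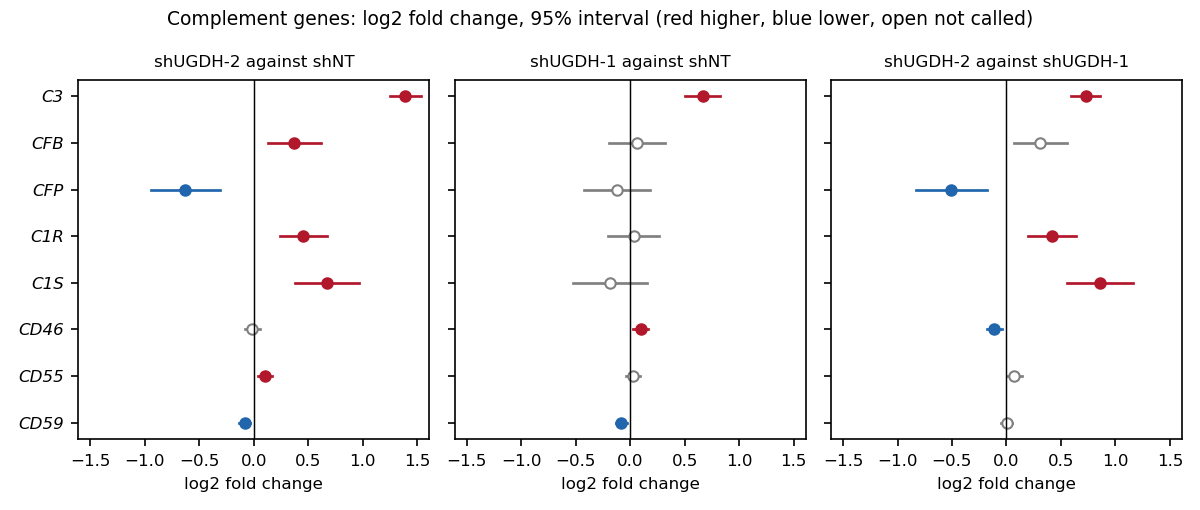
Log2 fold change (horizontal axis) of the 8 tested genes, 1 row per gene, in 3 panels (each UGDH hairpin against shNT, then both UGDH hairpins against each other) with 95% intervals as lines. Filled red points were higher and filled blue points lower at an adjusted p under 0.05, and open points did not pass. C3 is to the right in all 3 panels, CFP is at -0.63, -0.12 and -0.51, and the 3 membrane regulators lie within about 0.1 of 0.

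Counted together, 3 of the 8 tested genes passed with shUGDH-1 against shNT, beside 20.8% of all genes tested. C3 and CD46 rose, beside 10.5% of all genes, and CD59 fell, beside 10.3%. Their median log2 fold change was 0.03, against -0.00 over all genes. Between the hairpins 5 of 8 passed, beside 10.9% of all genes. C3, C1R and C1S were higher with shUGDH-2 (5.36% of all genes) and CFP and CD46 lower (5.51%), with a median of 0.19 against -0.00 over all genes, and C3 and CFP in this count had been chosen on the shUGDH-2 libraries. With shUGDH-2 against shNT, the contrast behind the choice, 7 of 8 passed, beside 14.9% of all genes, 5 of them higher (8.04%) and 2 lower (6.81%), with a median of 0.24 against -0.01. Nothing is read from that last count. The 3 comparisons share libraries in pairs and are not independent. With DESeq2 in place of edgeR, 2 passed with shUGDH-1 against shNT, 3 between the hairpins and 4 with shUGDH-2 against shNT. C3 with shUGDH-1 against shNT and C1S between the hairpins passed under every alternative tried. Both rest on libraries that had also served the choice of the genes, shNT for C3 and shUGDH-2 for C1S.

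**Figure D3:**
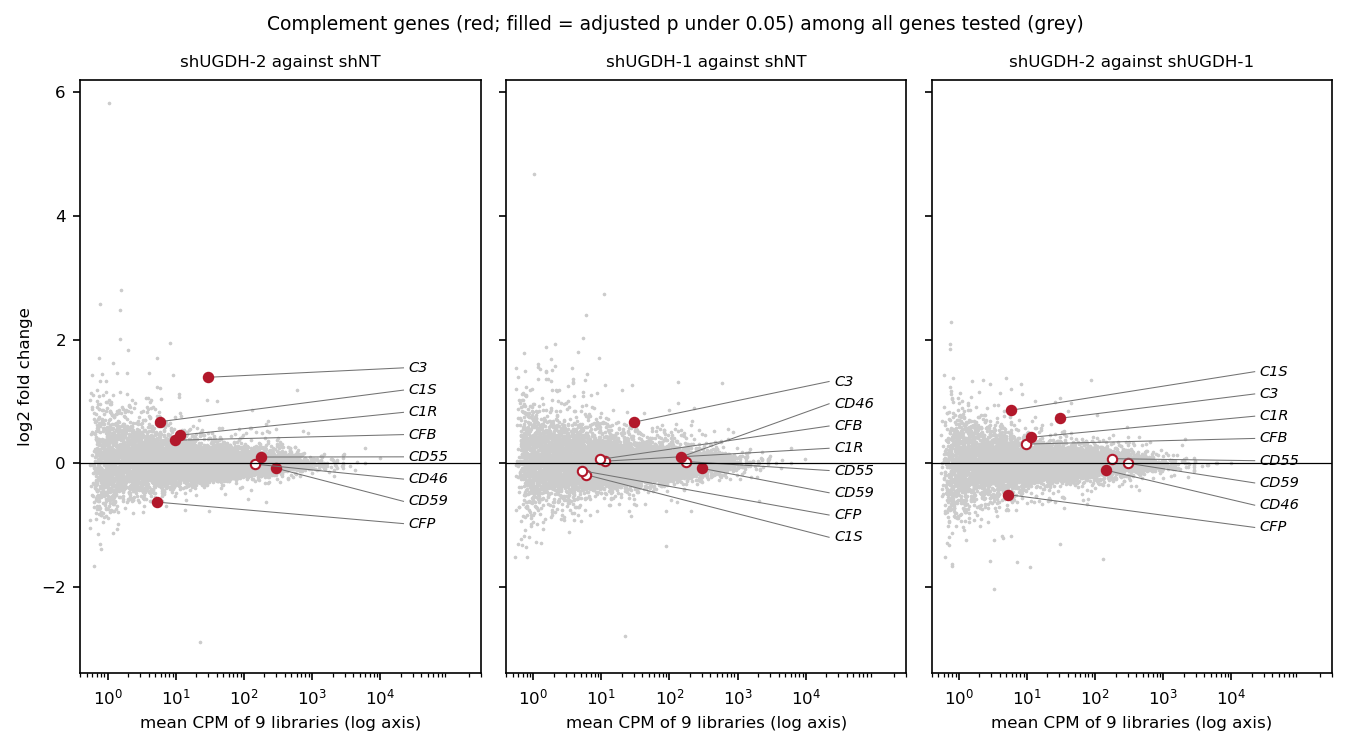
Log2 fold change (vertical axis) against mean CPM of the 9 libraries (log axis) for all genes tested (grey) and the 8 tested complement genes (red, filled where the adjusted p was under 0.05), in the 3 comparisons. C3 lies above 0 in each panel, with log2 values of 1.39, 0.66 and 0.73. These exceed in size those of 99.8%, 98.0% and 98.9% of all genes tested. The membrane regulators lie within the cloud.

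Stretches of promoter are shown for 3 genes whose shUGDH-2 libraries stood apart from shNT, because CFB and C1R were high and CFP low there and because motifs of inflammatory transcription factors are known in complement genes. RefSeq start sites (GRCh38.p14) were at hand for 7 of the 9 genes, in 13 windows of 250 bases upstream. Searched on both strands were the core of the interferon-stimulated response element (GAAANNGAA, in 6.88% of 35116 windows of all genes), the STAT palindrome (TTCNNNGAA, in 6.57%), the NF-kB consensus (in 9.96%) and the TATA box (TATAAA, in 10.7%). Each line shows 30 bases, 5′ to 3′ on the gene's strand, with the match in capitals; the matches do not overlap each other.
CFB, response element core, chr6:31945946-31945975 plus strand: cttctgcagtTTCTGTTTCcttgactggca
CFB, STAT palindrome, chr6:31945993-31946022 plus strand: cgcttggatgTTCCGGGAAagtgatgtggg
C1R, STAT palindrome, chr12:7091960-7091989 minus strand: gccagtcctaTTCCTGGAAggggaggggag
CFP, response element core, chrX:47630435-47630464 minus strand: ctcctgccacTTCCCTTTCtcacttccctt
CFB also held the NF-kB consensus and the TATA box, and CD59 the STAT palindrome. No match was found in these windows for CFI, CD46 and CD55. A match is a run of letters and was not tested as a binding site.

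The rest of the complement system was examined through 51 further genes, of which 50 had an entry, 25 had a read and 12 could be tested. Of these 12, 1 passed with shUGDH-2 against shNT, beside 14.9% of all genes, 3 with shUGDH-1 against shNT, beside 20.8%, and 1 between the hairpins, beside 10.9%, all in the higher direction. Their median log2 fold change was 0.12 with shUGDH-2 against shNT, 0.20 with shUGDH-1 against shNT and -0.07 between the hairpins. Under DESeq2 none of the 12 passed in any comparison. The genes for C1q, the recognition part of the complex that holds C1r and C1s, were at 0 in all libraries (C1QA, C1QB and C1QC). C4A and C4B, which encode the substrate of C1s, were also listed at 0, but these are near-identical copies whose reads can be lost in counting.

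Of the recognition and activation genes, C2, the partner of C4 in the classical enzyme, averaged 3.93 ± 0.20 CPM with shUGDH-2, 5.34 ± 1.08 CPM with shUGDH-1 and 3.72 ± 0.78 CPM with shNT (SD, n = 3 each). It rose with shUGDH-1 (log2 fold change 0.48, SE 0.18, adjusted p = 0.046, edgeR), although the groups overlapped, and the call was lost without shNT replicate 2 or 3 or shUGDH-1 replicate 2 or 3 (adjusted p = 0.090 to 0.24), with only both groups fitted (0.058) and with the replicate number as a block (0.052). C1RL, the C1r-like protease gene that overlaps C1R, averaged 3.27 CPM with shUGDH-2, 2.72 CPM with shUGDH-1 and 2.21 CPM with shNT, and its log2 fold change with shUGDH-2 of 0.56 did not pass (adjusted p = 0.081). MASP2, the lectin pathway protease, and CFD, the protease that cuts factor B, lay between 1.26 and 3.02 CPM in group means and passed in no comparison. C5, the first terminal component, averaged 13.0 CPM with shUGDH-2, 14.0 CPM with shUGDH-1 and 12.5 CPM with shNT and did not pass. The other 6 genes of the terminal complex were below testing.

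Among the soluble regulators, CLU, which encodes clusterin, an inhibitor of the membrane attack complex, averaged 153 ± 6.8 CPM with shUGDH-2, 140 ± 2.1 CPM with shUGDH-1 and 140 ± 4.2 CPM with shNT (SD, n = 3 each). It was higher with shUGDH-2 than with shNT and than with shUGDH-1, by log2 values of 0.12 and 0.12 (SE 0.03 and 0.04, adjusted p = 0.011 and 0.011, edgeR). The first call was lost without shNT replicate 1 (0.061) or shUGDH-2 replicate 3 (0.13), and the second without shUGDH-1 replicate 2 (0.063) or shUGDH-2 replicate 3 (0.15). C4BPB, a chain of C4b-binding protein, averaged 25.2 ± 2.8 CPM with shUGDH-2, 29.3 ± 1.4 CPM with shUGDH-1 and 24.8 ± 2.1 CPM with shNT, and rose with shUGDH-1 (log2 fold change 0.23, SE 0.08, adjusted p = 0.020), a call lost without shNT replicate 3 (0.14) or shUGDH-1 replicate 1 (0.12). Without shUGDH-2 replicate 2 it was lower with shUGDH-2 than with shUGDH-1 (log2 -0.31, adjusted p = 0.010). C4BPA, the gene of the alpha chain of the same protein, was below testing, with 1 read in the shUGDH-1 libraries and 0 in the others. VTN and SUSD4 stayed near 1 CPM and did not pass.

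Of the receptors, ITGB2, the beta chain shared by complement receptors 3 and 4, averaged 1.78 ± 0.24 CPM with shUGDH-2, 2.34 ± 0.04 CPM with shUGDH-1 and 1.29 ± 0.25 CPM with shNT. It rose with shUGDH-1 (log2 fold change 0.86, SE 0.27, adjusted p = 0.015), on 83 reads in the group, and did not pass without shNT replicate 3 (adjusted p = 0.083). Its alpha chains ITGAM and ITGAX were below testing. C3AR1, the receptor of the C3a fragment, averaged 1.42 CPM with shUGDH-2, 1.91 CPM with shUGDH-1 and 1.31 CPM with shNT and did not pass, and C1QBP, a mainly mitochondrial protein named for binding C1q, averaged 217 CPM with shUGDH-2, 223 CPM with shUGDH-1 and 227 CPM with shNT and did not pass. Without shUGDH-2 replicate 1, C1QBP was lower with shUGDH-2 than with shNT (log2 -0.10, adjusted p = 0.027).

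**Figure D4:**
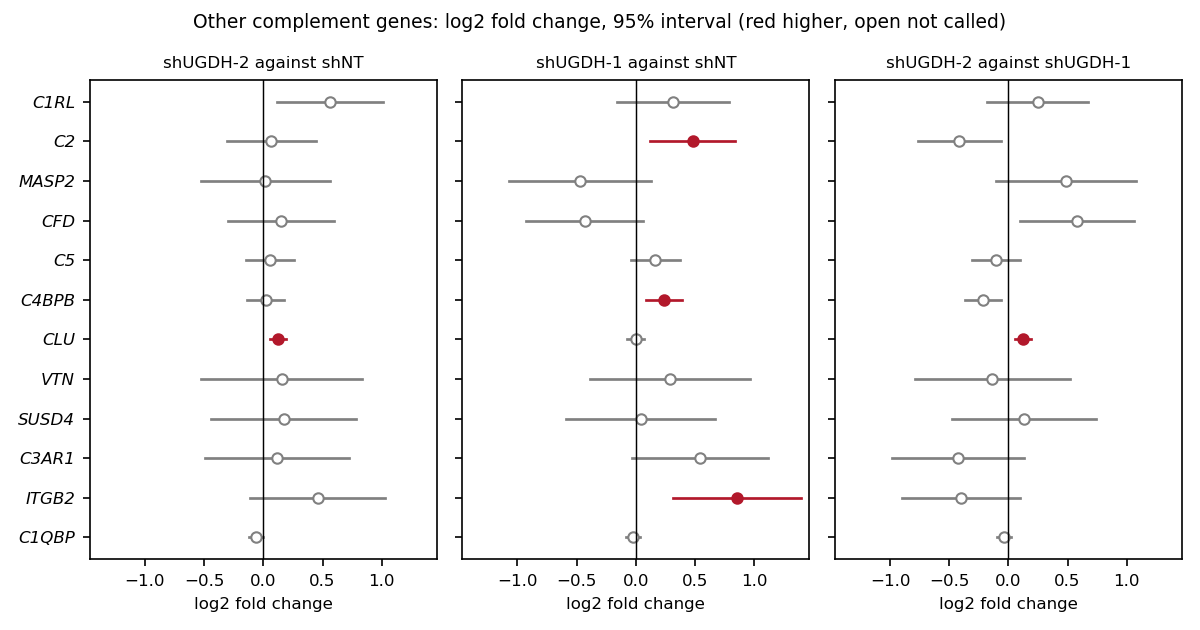
Log2 fold change (horizontal axis) with 95% interval of the 12 other complement genes that could be tested, 1 row per gene, in the same 3 comparisons. Filled red points passed at an adjusted p under 0.05 and open points did not. CLU passed with shUGDH-2 against shNT and against shUGDH-1, and C2, C4BPB and ITGB2 with shUGDH-1 against shNT.

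CD55 and CD59 are held in the membrane by a glycosylphosphatidylinositol (GPI) anchor, unlike CD46, which spans it. Of 24 anchor genes listed, 23 were tested. With shUGDH-2 against shNT none was higher and 1 lower, beside 14.9% of all genes passing in either direction. With shUGDH-1 against shNT none was higher and 2 lower, beside 20.8%, and between the hairpins 1 was higher and none lower, beside 10.9%. PIGA, a subunit of the enzyme of the first step, averaged 16.6 ± 1.5 CPM with shUGDH-2 and 16.3 ± 1.0 CPM with shUGDH-1, against 19.7 ± 1.8 CPM with shNT (SD, n = 3 each), and fell with both (log2 fold change -0.25 and -0.29, adjusted p = 0.045 and 0.015, edgeR). The shUGDH-2 and shNT ranges of PIGA overlapped, with a highest shUGDH-2 library at 18.26 CPM and a lowest shNT library at 18.23 CPM. Alternative fits were not compared for PIGA. PIGT, a subunit of the transamidase that attaches the anchor, averaged 234 CPM with shUGDH-2, 211 CPM with shUGDH-1 and 226 CPM with shNT. It fell with shUGDH-1 (log2 -0.10, adjusted p = 0.0095) and was higher with shUGDH-2 than with shUGDH-1 (log2 0.15, adjusted p = 0.00011). Anchor density and surface protein were not measured.

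Of 13 transcription factors known to act on complement genes, 11 were tested. With shUGDH-2 against shNT 2 of them passed, beside 14.9% of all genes, with shUGDH-1 against shNT 2, beside 20.8%, and between the hairpins 4, beside 10.9%. With shUGDH-2 against shNT, STAT3 rose (207 ± 5.5 CPM against 194 ± 4.5 CPM, log2 0.10, adjusted p = 0.016). With shUGDH-1 against shNT, NFKB1 fell (81.0 ± 1.7 CPM against 90.1 ± 4.8 CPM, log2 -0.16, adjusted p = 0.0049) and IRF1 fell (275 ± 3.7 CPM against 295 ± 6.3 CPM, log2 -0.10, adjusted p = 0.0028). Between the hairpins NFKB1, NFKB2 and IRF1 were higher with shUGDH-2 than with shUGDH-1 (log2 0.19, 0.12 and 0.15, adjusted p = 0.0014, 0.0055 and 1.6e-05, edgeR).

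Acute-phase genes encode secreted proteins that, like C3 and CFB, rise in inflammation in liver. Of 17 listed, 6 were tested. Higher were 4 with shUGDH-2 against shNT, beside 8.04% of all genes, and 3 with shUGDH-1 against shNT, beside 10.5%. Between the hairpins 3 were higher, beside 5.36%, and 1 lower, beside 5.51%. LCN2, an iron-sequestering protein, stood at 15.2, 15.3 and 14.0 CPM in the shUGDH-2 libraries, at 6.39, 5.34 and 6.73 CPM in the shUGDH-1 libraries and at 3.38, 3.83 and 4.43 CPM in the shNT libraries, the same order of hairpins as C3. LCN2 had been named on these libraries too, so this is no independent observation. The acute-phase list was also chosen with earlier results of these data known. Its p-values are therefore not independent of that choice. SAA1 stood at 381, 369 and 382 CPM in the shUGDH-2 libraries, at 250.3, 255 and 248 CPM in the shUGDH-1 libraries and at 254, 262 and 255 CPM in the shNT libraries. It was 1.47-fold higher with shUGDH-2 than with shNT (adjusted p = 9.5e-27) and did not pass with shUGDH-1 (log2 -0.03, 95% interval -0.08 to 0.02, adjusted p = 0.50). SAA2, a close paralog that can share reads with it, averaged 59.0 ± 2.4 CPM with shUGDH-2, 32.8 ± 0.6 CPM with shUGDH-1 and 29.3 ± 3.8 CPM with shNT and was 2.01-fold higher with shUGDH-2 than with shNT (adjusted p = 4.5e-20). PTX3, a pentraxin that binds C1q, went the other way between the hairpins, at 101 ± 5.8 CPM with shUGDH-2, 126 ± 6.0 CPM with shUGDH-1 and 101 ± 1.7 CPM with shNT, and rose with shUGDH-1 (log2 0.32, adjusted p = 6.9e-09). SERPINA1 rose with both (log2 0.39 with shUGDH-2, adjusted p = 0.0012, and 0.25 with shUGDH-1, adjusted p = 0.042, edgeR).

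The genes whose levels ran most nearly with C3 over the 9 libraries, among 10359 genes of at least 5 CPM, were TAPBP (Pearson r of log2 CPM 0.987), TGM2 (0.982), TNIP1 (0.980), ICAM1 (0.979) and SOX9 (0.978). TNIP1 averaged 388 CPM with shUGDH-2, 339 CPM with shUGDH-1 and 307 CPM with shNT, and ICAM1 averaged 341 CPM with shUGDH-2, 307 CPM with shUGDH-1 and 263 CPM with shNT, smaller steps than those of C3. For CFP they were CTNNAL1 (0.979), ATP5F1 (0.966), CPOX (0.950), NXPE3 (0.940) and PHF6 (0.938). CPOX averaged 90.3 CPM with shUGDH-2, 115 CPM with shUGDH-1 and 134 CPM with shNT. These r values describe 9 libraries in 3 groups that share their treatment, and with so many genes compared high values are to be had for any gene.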

How the data were processed

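RNA of 9 MDA-MB-231 samples was sequenced as read pairs after an mRNA library kit, per the labels' protocols. The deposited table holds raw counts of reads per gene. The submitters' processing notes name STAR, DESeq, DESeq2 and the build hg19; counter, strand setting and annotation were not given in the sources used here. Per the file headers, the authors' comparison tables hold a baseMean signal (mean normalized count), log2 fold changes, standard errors and the p-value per gene. The headers also list an adjusted p-value. Of these, only the log2 values and the adjusted p-values or calls named as theirs are used.

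Counts were filtered with filterByExpr, scaled by TMM (factors 0.997 to 1.003) and fitted over all 9 libraries with edgeR 4.0.16 (robust quasi-likelihood, R 4.3.3), with Benjamini-Hochberg adjustment over 12546 genes and a threshold of 0.05. The common biological coefficient of variation was 0.0202, and library pairs within a group varied by 1.2 to 1.91 times counting error. Entries without a gene name, 28 in all, held 0.232% of counts and stayed out of gene results. DESeq2 1.42.0, other size factors, no filter, fits of 2 groups, a replicate block and leaving out each library were the alternatives. The method was tested on simulated data.

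The genes and lists were chosen with earlier results of these data known, so p-values of their genes are not independent of these libraries. Named are UGDH, the 9 genes, other complement genes of at least 1 CPM, called genes of the transcription factor, acute-phase and GPI lists (up to 6 a list), marker sums, and the 5 genes nearest in pattern to C3 and CFP; genes at 0 were added after their values were seen. Some genes that this rule names are not reported here. Positions are from GENCODE 29 (GRCh38) and promoters from RefSeq (GRCh38.p14), by symbol; no coordinate was converted.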

Additional observations from a re-analysis of the deposited data

Results flagged for a closer look

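The response differed between the UGDH hairpins, by the direct comparison of shUGDH-2 with shUGDH-1, for 6 of the 8 and 12 complement genes tested, beside 10.9% of all genes. C3 was higher with shUGDH-2 by a log2 value of 0.73, C1S by 0.86, C1R by 0.42 and CLU by 0.12, while CFP differed by -0.51 and CD46 by -0.11. C3 and CFP had been chosen on the shUGDH-2 libraries, so their differences are descriptions. The tests of the other genes use the same shUGDH-2 libraries and are not independent of that choice. The differences of CFP, CD46 and CLU did not pass under DESeq2. Remaining UGDH did not pass between the hairpins (log2 -0.09, 95% interval -0.35 to 0.16), and the part of the hairpin sequence in these differences was not tested.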

How the results depend on the processing

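With DESeq2 in place of edgeR, 607 genes were higher and 398 lower with shUGDH-2 against shNT, 875 and 757 with shUGDH-1 against shNT, and 410 and 383 between the hairpins, against 1009 and 855, 1318 and 1287, and 672 and 691 with edgeR. Of the 8 tested complement genes, DESeq2 called 4 with shUGDH-2 against shNT and 3 between the hairpins, and it called 0 of the 12 other complement genes in each comparison. Results to which DESeq2 gave no adjusted p count as not called here. With no filter on low counts more of the 51 listed genes could be tested, and 3 of them passed between the hairpins. When only both UGDH hairpins were fitted 2 passed, and C4BPB passed under both settings. Other size factors kept each call of UGDH, the 8 tested genes and the 12 other complement genes. For the transcription factor, acute-phase and GPI genes the alternatives were not compared gene by gene. The replicate block, with 1298 genes higher with shUGDH-1 against shNT, changed 1 call, that of C2. Deviations of libraries with the same number correlated at -0.11 to 0.21. Libraries with different numbers were not compared, so these values cannot decide whether the numbers mark pairs.

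Leaving out 1 library at a time gave 496 to 767 genes lower with shUGDH-2 against shNT (496 without shUGDH-2 replicate 1). The 8 genes gave 4 to 7 calls with shUGDH-2 against shNT, 1 to 2 with shUGDH-1 against shNT and 2 to 5 between the hairpins, and the other complement genes gave 0 to 2, 0 to 3 and 0 to 2. The lowest counts of the 8 came without shUGDH-2 replicate 1 (4 against shNT, 2 between the hairpins) and without shUGDH-1 replicate 3 (1).

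Fold changes near 0 that did not pass changed sign. With no filter, CLU with shUGDH-1 stood at 0.00041. The log2 ranges over left-out libraries with shUGDH-2 against shNT were -0.066 to 0.24 for C2, -0.084 to 0.33 for C3AR1, -0.075 to 0.084 for C4BPB, -0.036 to 0.014 for CD46, -0.069 to 0.30 for CFD, -0.15 to 0.19 for MASP2 and -0.0078 to 0.33 for VTN. With shUGDH-1 against shNT they were -0.040 to 0.00016 for C1QBP, -0.0025 to 0.054 for CD55, -0.12 to 0.18 for CFB, -0.024 to 0.022 for CLU and -0.13 to 0.23 for SUSD4. Between the hairpins they were -0.011 to 0.011 for CD59, -0.058 to 0.30 for SUSD4 and -0.30 to 0.046 for VTN. The cause of these shifts was not tested. CFP, C1S and CFB rest on 147 to 418 reads per group, which limits how small a change can be seen.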
